A study of Mus musculus with 9 samples.

Results

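Secretoglobins are the subject here, the gene family that includes the mouse androgen-binding proteins. Every probe set whose platform annotation holds a symbol starting with Scgb was taken, which gave 7 of 22626 probe sets. They are annotated to 8 of the 13320 gene symbols on the array. The RNA came from lateral nasal glands, serous glands that empty into the nasal cavity, and was hybridised to 9 1-colour Affymetrix arrays. Cyp2g1-null males, on a mixed 129/Sv and C57BL/6 background, gave 3 arrays. Wild-type C57BL/6 males, called B6 here, gave 4 arrays, and wild-type 129/Sv males gave 2. All mice were 2 to 3 months old, and each array held RNA pooled from the glands of 10 mice. Cyp2g1 encodes a cytochrome P450 of the nasal mucosa, and the null mice lack it throughout the body. No group of these arrays was wild type on the mixed background, so the deletion and the background cannot be told apart. The labels do not say that the pools of a group were prepared apart, so p-values measure the spread between these pools, part of which may be technical.

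Secretoglobins are small secreted helical proteins that form dimers with a hydrophobic pocket. In the mouse androgen-binding proteins, an alpha subunit from an Scgb1b gene is joined by disulphide bonds to a beta-gamma subunit from an Scgb2b gene. These proteins are known from saliva and tears, where they coat the pelt and have been linked to recognition between mouse subspecies. The genes form a large cluster of alpha and beta copies on chromosome 7, the chromosome that also carries Cyp2g1. RefSeq lists 19 Scgb1b and 29 Scgb2b genes there, pseudogenes included. The array covered them with 2 alpha probe sets, Scgb1b27 and Scgb1b2, and 2 beta probe sets, Scgb2b27 and a probe set annotated to both Scgb2b7 and Scgb2b20. The other 3 probe sets were Scgb1a1, the club cell secretory protein of the airway (chromosome 19), Scgb3a1, a secreted protein of large airways (chromosome 11), and Scgb3a2, a secreted protein of small airways. Each gene had 1 probe set, so no second probe set could be set beside it. Copies in this cluster are close in sequence, and the probe sequences were not used here, so a signal may include RNA of paralogs.

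Because Scgb1b27, Scgb1b2 and Scgb2b27 differed between the same groups, their promoters are shown, with that of Scgb2b20 as a second beta gene. Each window runs from 250 bases before to 50 bases after the RefSeq start (GRCm38.p6), 5′ to 3′ along the gene. Capitals mark TATAAA and AGAACA, a core motif of the androgen and glucocorticoid receptors, on either strand (TTTATA and TGTTCT where the match is on the other strand). The 2 motifs do not overlap in these windows.
Scgb1b27, chr7:34021231-34021530, plus strand: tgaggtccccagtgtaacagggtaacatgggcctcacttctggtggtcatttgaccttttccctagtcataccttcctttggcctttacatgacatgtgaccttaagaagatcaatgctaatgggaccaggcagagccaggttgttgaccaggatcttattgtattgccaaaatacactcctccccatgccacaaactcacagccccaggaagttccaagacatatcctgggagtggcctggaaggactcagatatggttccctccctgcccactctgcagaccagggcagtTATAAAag
Scgb1b2, chr7:31291767-31292066, minus strand: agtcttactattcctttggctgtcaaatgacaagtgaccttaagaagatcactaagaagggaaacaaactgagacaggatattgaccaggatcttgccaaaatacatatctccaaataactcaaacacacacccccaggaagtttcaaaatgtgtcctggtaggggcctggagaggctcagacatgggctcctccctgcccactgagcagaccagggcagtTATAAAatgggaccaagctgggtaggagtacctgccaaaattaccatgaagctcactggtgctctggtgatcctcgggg
Scgb2b27, chr7:34013893-34014192, minus strand: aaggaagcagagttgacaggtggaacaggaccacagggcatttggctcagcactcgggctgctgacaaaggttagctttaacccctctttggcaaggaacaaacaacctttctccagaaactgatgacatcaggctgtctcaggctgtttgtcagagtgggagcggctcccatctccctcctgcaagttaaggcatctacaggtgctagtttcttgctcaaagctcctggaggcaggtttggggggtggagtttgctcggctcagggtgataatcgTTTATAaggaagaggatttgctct
Scgb2b20, chr7:33366270-33366569, minus strand: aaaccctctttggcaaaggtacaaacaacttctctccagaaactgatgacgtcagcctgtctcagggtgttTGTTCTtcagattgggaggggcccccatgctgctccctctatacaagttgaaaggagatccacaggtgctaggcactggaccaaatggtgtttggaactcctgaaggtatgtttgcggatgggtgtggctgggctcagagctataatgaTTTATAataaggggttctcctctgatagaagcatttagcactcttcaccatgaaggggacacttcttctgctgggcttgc
Over the best local alignment, the windows of the alpha genes Scgb1b2 and Scgb1b27 were 76.7% identical (181 of 236 aligned columns). Those of the beta genes Scgb2b20 and Scgb2b27 were 72.7% identical (178 of 245). The windows of Scgb2b20 and Scgb2b7, the genes that share a probe set, were 98.7% identical (293 of 297). TATAAA lay at positions -29 to -24 from the RefSeq start in Scgb1b2. It lay at 43 to 48 in Scgb1b27, after the RefSeq start. In the beta genes the match was on the other strand, at -30 to -25 in Scgb2b20 and at 27 to 32 in Scgb2b27. TATAAA was found in 13.6% of all 32851 promoters in the table, in 5 of 9 Scgb1b windows and in 17 of 20 Scgb2b windows. AGAACA was found in 19.0% of all promoters, in 3 of 9 Scgb1b windows and in 16 of 20 Scgb2b windows. It was not in the windows of Scgb1b27, Scgb1b2 or Scgb2b27, and lay at -179 to -174 in Scgb2b20. The full palindrome, AGAACA and TGTTCT with 3 bases between them, and the forkhead motif TGTTTAC were in 0 of these 29 Scgb1b and Scgb2b windows, against 0.00913% and 3.65% of all promoters. CCAAT was in 4 of 9 Scgb1b and 3 of 20 Scgb2b windows, and in 37.4% of all promoters. RefSeq starts are placed differently among these genes, so the windows do not cover the same stretch of each promoter.

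Signals are linear MAS5 intensities, already scaled by the authors, with a trimmed mean of 1500.6 on every array. Array medians lay between 518.5 and 550 and the brightest probe set of each array between 129905 and 177173. Tests were made on log2(signal + 16), on which fold changes of low signals are understated, for the 12575 probe sets that exceeded the array median on at least 2 arrays. Of the 7 secretoglobin probe sets, 4 passed this filter. Cyp2g1, as a check of the labels, had signals of 55.7, 140.6 and 201.1 on the null arrays, 5917, 748.2, 2007 and 2799 on the B6 arrays and 207.5 and 981.2 on the 129/Sv arrays. Against B6 its log2 fold change in null glands was -4.07 (limma adjusted p = 0.00268), and against 129/Sv it was -1.81, which did not pass (adjusted p = 0.325; -2.89 without 129/Sv array 1 and -0.73 without 129/Sv array 2). The sources used here do not say whether its probe set lies in the deleted part.

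RNA signals for alpha and beta androgen-binding proteins were several-fold higher in null and B6 than in 129/Sv glands at 3 of 4 probe sets. Whether the strains differ in sequence at these probes was not tested. Scgb1b27, Scgb1b2 and Scgb2b27 were each called higher in null than in 129/Sv arrays and in B6 than in 129/Sv arrays. None of the 4 tested secretoglobin probe sets was called between null and B6 arrays. Null glands had the highest mean signal of all 3 genes. The airway secretoglobins gave only low signals.

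Scgb1b27 encodes an alpha subunit of androgen-binding protein. Its signals were 106252, 94093 and 124356 on the null arrays, 58361, 79721, 72756 and 96367 on the B6 arrays, and 18404 and 15680 on the 129/Sv arrays. Both 129/Sv arrays lay below all other arrays, and null and B6 arrays overlapped only because null array 2 was below B6 array 4. Null glands averaged 108234 ± 15228 (SD, n = 3), B6 glands 76801 ± 15788 (SD, n = 4) and 129/Sv glands 17042 ± 1926 (SD, n = 2). Among all 22626 probe sets it ranked between 7th and 530th by signal, depending on the array.

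Against 129/Sv, Scgb1b27 was 6.33-fold higher in null glands (log2 fold change 2.66, SE 0.169, limma adjusted p = 4.27e-07). In B6 glands it was 4.45-fold higher than in 129/Sv (2.15, SE 0.16, adjusted p = 1.67e-06). Against B6, the null signal was 1.42-fold higher, with a log2 fold change of 0.51 and a 95% interval from 0.2 to 0.81. That difference had an unadjusted limma p of 0.00302 and did not pass over all probe sets (adjusted p = 0.0852).

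Scgb2b27 encodes a beta-gamma subunit, and its gene is the direct neighbour of Scgb1b27 in RefSeq, with 0 entries between them and the opposite strand. Its signals were 90555, 71850 and 102606 on the null arrays, 35272, 52039, 59237 and 73594 on the B6 arrays, and 19196 and 23335 on the 129/Sv arrays. As with the alpha gene, both 129/Sv arrays were lowest, and only null array 2 and B6 array 4 made null and B6 overlap. Null glands averaged 88337 ± 15498 (SD, n = 3), B6 glands 55035 ± 15934 (SD, n = 4) and 129/Sv glands 21266 ± 2927 (SD, n = 2).

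Scgb2b27 was 4.13-fold higher in null than in 129/Sv glands (log2 fold change 2.05, SE 0.229, limma adjusted p = 0.00015). In B6 it was 2.51-fold higher than in 129/Sv (1.33, SE 0.218, adjusted p = 0.00211). Against B6, the null signal was 1.64-fold higher, with a log2 fold change of 0.72 and a 95% interval from 0.3 to 1.13. The unadjusted limma p was 0.00231, and the difference did not pass over all probe sets (adjusted p = 0.0722).

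Scgb1b2 encodes another alpha subunit, from another place in the cluster. Its signals were 4488, 3265 and 3396 on the null arrays, 3920, 2805, 3501 and 2927 on the B6 arrays, and 959.1 and 543.5 on the 129/Sv arrays. Null and B6 arrays were intermingled, and both 129/Sv arrays lay below them. Scgb1b2 was 5-fold higher in null than in 129/Sv glands (log2 fold change 2.32, SE 0.223, limma adjusted p = 3.86e-05) and 4.43-fold higher in B6 than in 129/Sv (2.15, SE 0.212, adjusted p = 2.16e-05). Between null and B6 the log2 fold change was 0.17 (95% interval -0.23 to 0.58, adjusted p = 0.718).

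The second beta probe set, shared by Scgb2b7 and Scgb2b20, was the least even of the 4. Its signals were 1869, 169.6 and 600.8 on the null arrays, 67.5, 266.4, 218.2 and 142.2 on the B6 arrays, and 469 and 279.3 on the 129/Sv arrays. It exceeded the array median only on null arrays 1 and 3, and so entered the test through the null group. Its log2 fold changes were 1.8 for null against B6 (SE 0.684, limma adjusted p = 0.234), 0.66 for null against 129/Sv (adjusted p = 0.841) and -1.14 for B6 against 129/Sv (adjusted p = 0.508). None of these passed. The value for null against 129/Sv was 1.51 without null array 2, 1.02 without 129/Sv array 1 and 0.31 without 129/Sv array 2. Without null array 1 or null array 3 the probe set failed the filter and was not tested. The lower 129/Sv signal, 279.3, was just above the highest B6 signal, 266.4. All B6 and 129/Sv signals here were under the array medians, so no strain order is read from them.

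**Figure D1:**
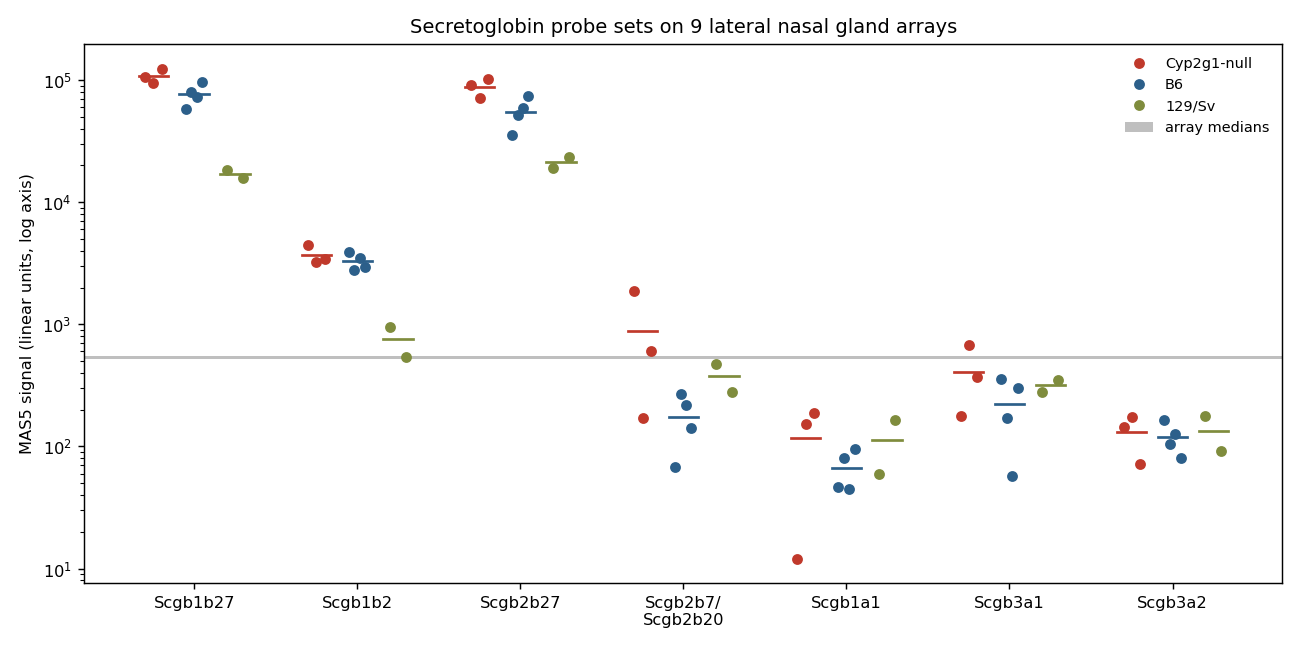
MAS5 signal (log axis) of the 7 secretoglobin probe sets on the 9 arrays. Each point is an array, short lines are group means, and the grey band spans the array medians. For Scgb1b27, Scgb1b2 and Scgb2b27 the 3 null and 4 B6 arrays lie above both 129/Sv arrays, and the 3 airway secretoglobins lie mostly under the band.

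The 3 airway secretoglobins did not pass the filter. Scgb1a1 had signals from 12 to 188.2 on the null arrays, 44.8 to 95 on the B6 arrays and 60 and 164.9 on the 129/Sv arrays, all under the array medians. Scgb3a2 ran from 72.4 to 175.4 on the null arrays, 80.3 to 164 on the B6 arrays and 92.2 and 176.5 on the 129/Sv arrays, also under all array medians. Scgb3a1 ran from 178.1 to 674.4 on the null arrays, 57.1 to 355.7 on the B6 arrays and 280.8 and 352.5 on the 129/Sv arrays, and exceeded its array median on 1 array, null array 2. Groups overlapped for all 3 genes in every comparison. No detection calls were used here, so whether these low signals are above background is unknown. Fitted without a filter, the log2 fold changes for null against B6 were 0.31 for Scgb1a1 (limma adjusted p = 0.921), 0.9 for Scgb3a1 (adjusted p = 0.634) and 0.08 for Scgb3a2 (adjusted p = 0.977).

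Against 129/Sv, 3 of the 4 tested secretoglobin probe sets were called higher in null glands, where 1.41% of the 12575 probe sets were called higher and 2.04% in either direction. In B6 against 129/Sv the count was also 3 of 4, where 2.92% of all probe sets were called higher and 5.19% in either direction. These comparisons share the 129/Sv arrays. In null against B6, 0 of 4 were called by limma, against 2.18% of all probe sets in either direction. At an unadjusted p under 0.05, where 8.06% of all probe sets were higher in null, 3 were higher: Scgb1b27, Scgb2b27 and the Scgb2b7 and Scgb2b20 probe set. The last of these is no support for the direction, since the filter admitted it through its null arrays. Without B6 array 4, which had the highest Scgb1b27 and Scgb2b27 of its group, 2 were called: Scgb1b27 (log2 fold change 0.63, adjusted p = 0.0237) and Scgb2b27 (0.87, adjusted p = 0.0203). Without B6 arrays 1 and 2, which are known from earlier results of these data to differ from the other B6 arrays, these changes were 0.36 (adjusted p = 0.156) and 0.4 (adjusted p = 0.136). Every null array was above every 129/Sv array for 3 of the 4 probe sets, an order shown by 16.2% of all tested probe sets. Every B6 array was above every 129/Sv array for the same 3 genes, against 12.2% of all tested probe sets. No secretoglobin had every null array above every B6 array, an order shown by 7.51% of all tested probe sets. The median log2 fold change over all tested probe sets was 0.016 for null against B6, 0.003 for null against 129/Sv and -0.013 for B6 against 129/Sv.

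**Figure D2:**
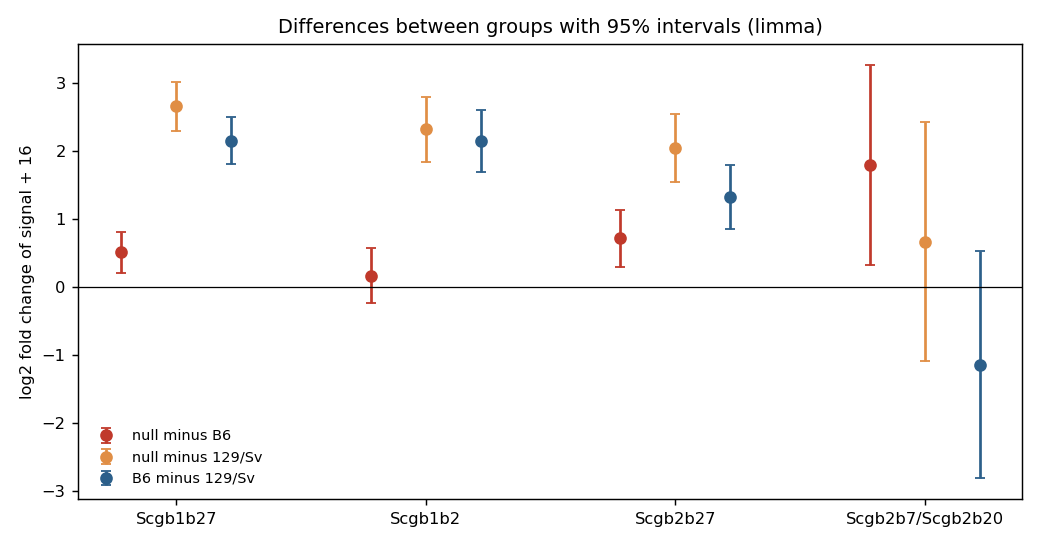
Log2 fold change of signal + 16 for the 4 tested secretoglobin probe sets, first named group minus the second. Points are limma estimates and bars are 95% intervals. The intervals of Scgb1b27, Scgb1b2 and Scgb2b27 against 129/Sv lie above 0, from 0.86 at the lowest to 3.02 at the highest, while those of null minus B6 lie nearer to 0 for these genes.

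Alpha and beta were then set side by side on each array. Since different probe sets are not on 1 scale, only the difference log2 Scgb1b27 minus log2 Scgb2b27 within an array was compared between groups. It was 0.23, 0.39 and 0.28 on the null arrays, 0.73, 0.62, 0.3 and 0.39 on the B6 arrays, and -0.06 and -0.57 on the 129/Sv arrays. The 129/Sv arrays had the lowest values, B6 arrays 1 and 2 the highest, and the null arrays lay within or just below the range of B6 arrays 3 and 4.

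The difference averaged 0.3 ± 0.08 (SD, n = 3) over null, 0.51 ± 0.2 (SD, n = 4) over B6 and -0.32 ± 0.36 (SD, n = 2) over 129/Sv arrays. Against the 6 wild-type arrays taken as 1 group, null minus wild type did not pass (0.07, exact two-sided permutation p = 0.952, adjusted p = 0.952 over 4 comparisons). That group joins strains with unlike values. The sign of this value turned when 129/Sv array 2 was left out (-0.09, exact permutation p = 0.607). B6 exceeded 129/Sv by 0.82 (exact permutation p = 0.133, the smallest that 15 splits allow; adjusted p = 0.267). Null exceeded 129/Sv by 0.62 (exact permutation p = 0.2, the smallest that 10 splits allow; adjusted p = 0.267), a value that was 0.36 without 129/Sv array 2. Null minus B6 was -0.21 (exact permutation p = 0.171, where 35 splits allow 0.0571; adjusted p = 0.267), and was -0.13 without B6 array 1 and -0.04 without B6 arrays 1 and 2. With so few arrays none of these 3 comparisons could pass a threshold of 0.05, although all B6 and null arrays were above both 129/Sv arrays. After adjustment over 4 comparisons, null against the 6 wild-type arrays could not pass it either. Its 84 splits allow an unadjusted exact permutation p of 0.0238.

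Within groups, the alpha and beta signals deviated from their group means on the same side on 4 of 9 arrays. The 4 were the arrays with the widest deviations among null and B6 glands. On the log2 scale Scgb1b27 and Scgb2b27 were below their group means by -0.37 and -0.59 on B6 array 1 and by -0.19 and -0.28 on null array 2. They were above by 0.35 and 0.47 on B6 array 4 and by 0.21 and 0.23 on null array 3. On the 129/Sv arrays the deviations were opposite, 0.12 for alpha and -0.14 for beta on array 1. The second alpha gene, Scgb1b2, was on the same side as Scgb1b27 on 3 of 9 arrays. With 2 to 4 arrays a group, no correlation within a group could be tested.

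**Figure D3:**
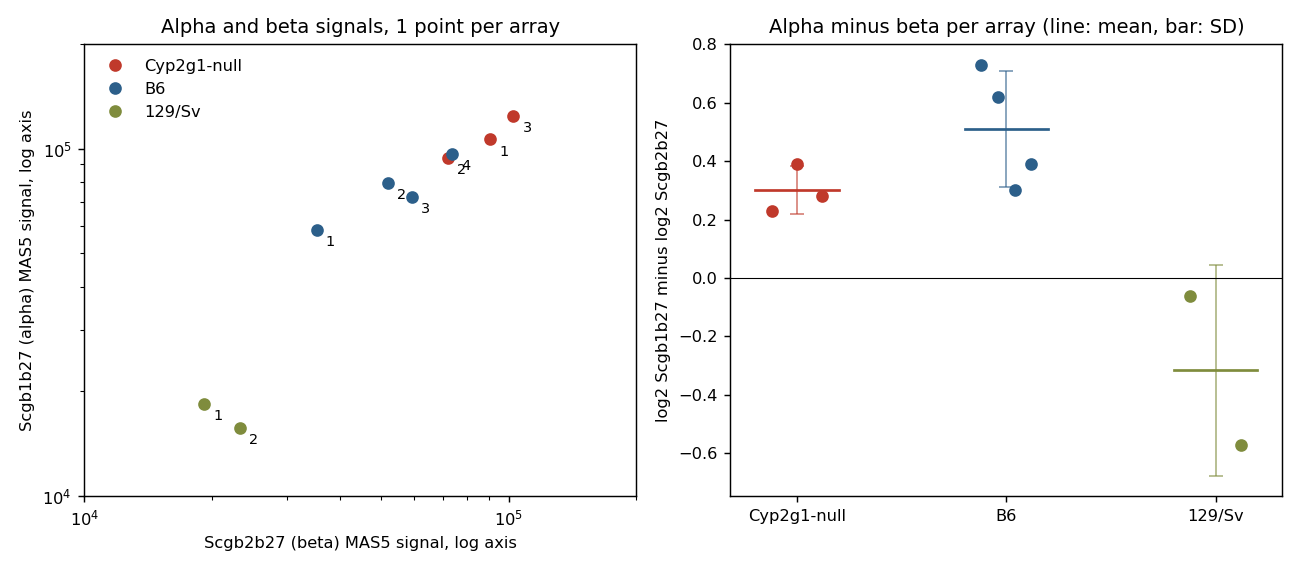
Left, Scgb1b27 (alpha) against Scgb2b27 (beta) MAS5 signal, both on log axes, 1 point per array with its replicate number. Right, log2 Scgb1b27 minus log2 Scgb2b27 per array, with lines for group means and bars for SD. The 129/Sv arrays stand apart in both signals and have the lowest difference, -0.06 and -0.57.

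The tested probe sets with profiles most like that of Scgb1b27 were looked for by the root mean square difference of log2 signals over the 9 arrays, each profile centred on its own mean. Scgb2b27 was the nearest of all (0.362 log2 units) and Scgb1b2 was 5th (0.389). Among probe sets with 1 gene symbol outside the family the nearest were Stk25, a protein kinase (0.368), Vamp3, a vesicle membrane protein (0.387), Kif5b, a kinesin motor (0.415), Riok3, an atypical kinase (0.418), and Sfn, an epithelial 14-3-3 protein (0.444). Stk25 had signals of 2424 to 2641 on null arrays, 2515 to 3024 on B6 arrays and 589.2 and 653.3 on 129/Sv arrays. Like Scgb1b2, it was low on the 129/Sv arrays and overlapped between null and B6 arrays. Since these genes were chosen for likeness on the same arrays, their low 129/Sv signals follow largely from the choice.

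For Scgb2b27 the nearest profiles were those of S100a10, a calcium-binding protein family member (0.301), Pcm1, a centriolar satellite protein (0.345), Usp38, a deubiquitinase (0.35), Sqor, a mitochondrial sulfide oxidoreductase (0.355), and Hspb8, a small heat shock protein (0.359). Scgb1b27 came 6th (0.362). S100a10 had signals of 1702, 1746 and 1901 on null arrays, 991.9 to 1215 on B6 arrays and 565.7 and 636.8 on 129/Sv arrays. Its 3 groups did not overlap. It was called higher in null than in B6 (log2 fold change 0.64, limma adjusted p = 0.0249), in null than in 129/Sv (1.54, adjusted p = 9.75e-05) and in B6 than in 129/Sv (0.9, adjusted p = 0.00289). S100a10 was chosen for its likeness to Scgb2b27 on these same arrays. Its order and calls therefore follow largely from that choice and are descriptions. The call against B6 was lost under 10 of 22 alternatives, with adjusted p-values from 0.0169 to 0.129 over all of them.

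**Figure D4:**
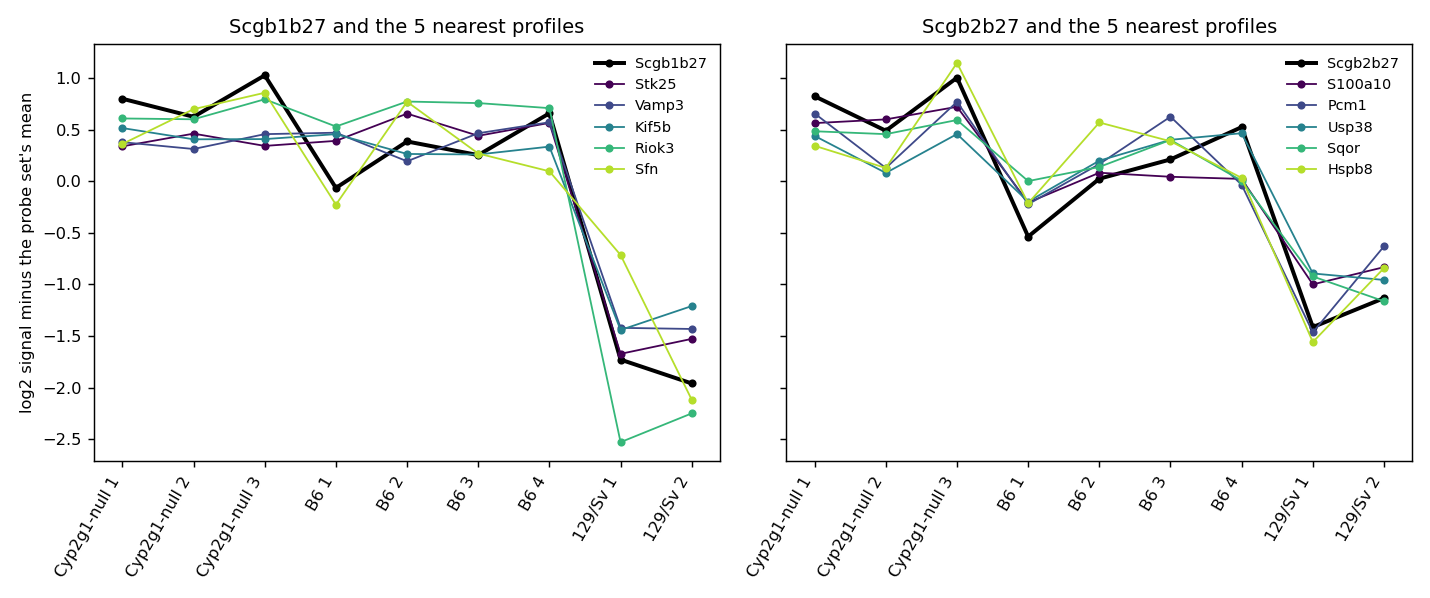
Log2 signal minus the probe set's own mean on each of the 9 arrays, for Scgb1b27 (left) and Scgb2b27 (right), in black, and the 5 nearest genes outside the family. All profiles drop on the 129/Sv arrays, which follows largely from choosing the genes by likeness on these same arrays. On B6 array 1 Scgb1b27 and Scgb2b27 also dip, as do several of the nearest genes, among them S100a10, Pcm1 and Sfn.

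Other secreted proteins were read as lists beside the secretoglobins. Among small-ligand carriers of secretions, 7 of 22 listed genes were tested. Of these 1, Lcn3, a lipocalin, was called lower in null than in B6 (log2 fold change -1.12, limma adjusted p = 0.00335), where 1.07% of all probe sets were called lower, and 0 were called in the other comparisons. Their medians were -0.17 for null against B6, 0.09 for null against 129/Sv and 0.15 for B6 against 129/Sv. Obp1a, a carrier of odorants that was among the brightest probe sets, had 112206 to 140712 on null arrays, 134209 to 150146 on B6 arrays and 120391 and 138653 on 129/Sv arrays. It did not pass in any comparison (log2 fold changes -0.17, -0.01 and 0.15, adjusted p = 0.41, 0.987 and 0.476, in the same order), and the sign of the smaller 2 depends on the arrays and the scaling used.

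Other secreted proteins of male exocrine glands, a list that includes glandular kallikreins and carbonic anhydrase 6, were counted in the same way. Of 12 tested genes, 6 were called higher and 0 lower in null than in B6 (median log2 fold change 0.56), where 1.11% of all probe sets were called higher. In B6 against 129/Sv, 1 was called higher and 4 lower (median -0.38), where 2.27% of all probe sets were called lower. In null against 129/Sv 0 were called (median 0.04). Klk1b11, a kallikrein, had signals of 2303, 2260 and 3238 on null arrays, 956.3 to 1191 on B6 arrays and 2615 and 3660 on 129/Sv arrays. It was higher in null than in B6 (log2 fold change 1.28, limma adjusted p = 0.000597) and lower in B6 than in 129/Sv (-1.54, adjusted p = 0.000113), the opposite strain order to Scgb1b27. The count of 6 became 3 without null array 2 and 1 without null array 3, and the count between strains became 1 without 129/Sv array 1 and 3 without B6 array 2.

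Genes of androgen action and metabolism were chosen because androgens regulate secretions of male glands. Of 26 listed genes, 9 were tested. None was called in null against B6 (median log2 fold change 0.09) or null against 129/Sv (median -0.02). In B6 against 129/Sv, Hsd17b11, a 17-beta hydroxysteroid dehydrogenase, was called lower in B6 (-0.77, adjusted p = 0.00342), where 2.27% of all probe sets were called lower, and the list's median was -0.14. That call was lost without 129/Sv array 1 (adjusted p = 0.0707). Without B6 array 1, 2 genes of the list were called in null against B6, while calls over all probe sets went from 274 to 611. The androgen receptor gene was not analysed here.

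Markers of other cell types were read beside these results. In such bulk samples fewer cells of a type and less RNA per cell cannot be told apart. All 4 tested olfactory neuron markers had higher signals in B6 than in 129/Sv and 1 of them, Adcy3, was called, where 2.92% of all probe sets were called higher. That call was lost without either 129/Sv array or without B6 array 4, when 0 of the list were called, and 2 were called without B6 array 2 or null array 3. Their summed signal over 5 genes ran from 1709 to 5387 in null, 2278 to 8496 in B6 and 1207 to 2198 in 129/Sv arrays. It was highest on B6 array 1, where Scgb1b27 and Scgb2b27 were lowest for B6. Other arrays went the other way. The sum was 5880 on B6 array 4 and 5387 on null array 3, where both genes were highest for their groups. All 6 tested ciliated cell markers had higher signals in null than in B6, 4 of them called, where 1.11% of all probe sets were called higher, with sums of 17910 to 18863 in null, 11018 to 13882 in B6 and 12518 to 14574 in 129/Sv arrays. The 4 calls became 1 without any of the 3 null arrays and 2 without B6 array 3 or 4. Serous gland markers summed to 375201 to 419536 in null, 326161 to 364037 in B6 and 356349 to 385285 in 129/Sv arrays. Among 9 tested genes, 3 were called higher in null than in B6, where 1.11% of all probe sets were called higher. They were Car6, Dmbt1 and Lyz2, already counted among the calls of the list with glandular kallikreins. Car6 was uneven within B6, with 387.5 and 593.7 on arrays 1 and 2 and 8017.5 and 7400.6 on arrays 3 and 4. Of the 9, 4 had a positive log2 fold change and the median was -0.01, and the 3 calls became 1 without null array 1 or 2 and 0 without null array 3. Stromal markers summed to 39893 to 45810 in null, 46995 to 57510 in B6 and 40163 to 40628 in 129/Sv arrays. Of 4 tested stromal markers, 1 was called lower in null than in B6, where 1.07% of all probe sets were called lower. That count ran from 0 to 2 when single arrays were left out. Club and goblet cell markers summed to 6790 to 8062, 9108 to 11925 and 6642 to 8866 in the same groups. That list and its sum include Scgb1a1, Scgb3a1 and Scgb3a2, so it is not separate from the secretoglobins. In the club and goblet list, Agr2, a folding enzyme of mucus-secreting cells, was called lower in null than in B6 (-1.07, adjusted p = 0.00254), where 1.07% of all probe sets were called lower. In each of the 2 lists 1 gene was called higher in B6 than in 129/Sv, where 2.92% of all probe sets were called higher. The club and goblet call was lost without B6 array 2, 3 or 4, 129/Sv array 1, or null array 1 or 3, and 2 stromal genes were called without B6 array 1 or 2. No marker had a signal of 0, as MAS5 gives values above 0. The part of these markers in the secretoglobin differences was not tested. Of the serous markers fixed for the labelled tissue, 9 of 10 passed the filter, and Lpo did not (13.1 to 151.6).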

How the data were processed

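RNA from lateral nasal glands was measured on 9 arrays, grouped by the sample titles. The deposited values are linear signal intensities from MAS5 (per the submitters' processing notes); the sources used here give no version, detection calls or batches. The number of arrays limits the precision. From 22690 probe sets, 64 control probe sets were left out. Symbols came from the platform annotation: 20380 probe sets had 1, 691 several and 1555 none, and none of the 20351 gene IDs found in RefSeq changed symbol.

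Signals were converted to log2(signal + 16). Probe sets above the array median on at least 2 arrays (12575) were fitted one by one in limma 3.58.1 (R 4.3.3; lmFit, eBayes with trend), with 1 mean per group and a spread shared by all 3 groups. Calls used a two-sided Benjamini-Hochberg adjusted p under 0.05 over all 12575. The script was tested on simulated data. Alpha minus beta was compared with exact permutation tests over arrays. Promoters are RefSeq's (GRCm38.p6); 6 of the members' genes were matched there. Alignments were local (Biopython 1.88). Named were all secretoglobin probe sets, the 5 nearest profiles to each of 2 members among probe sets with 1 symbol outside the family, up to 4 called genes per list, and a few genes of the gland or of androgen action; Fcgbp, Blvrb and Adcy3 were named after their values were seen. The members, lists and tests were chosen with earlier results of these data known. Alternatives covered scaling, pseudocount, filter, probe set choice, variance model, array weights, replicate block, samples fitted, threshold and arrays left out.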

Additional observations from a re-analysis of the deposited data

How the results depend on the processing

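Over 23 alternatives each, the count of secretoglobin probe sets called stayed at 3 for null against 129/Sv and at 3 for B6 against 129/Sv, and Scgb1b27, Scgb1b2 and Scgb2b27 kept their direction and their call in every one. The weakest was Scgb2b27 in B6 against 129/Sv, with a highest adjusted p of 0.045. For null against B6 the count was 0 and ran from 0 to 2 when single arrays were left out. With the replicate number as a block it was 2. B6 array 4 is alone in its block and adds nothing to these estimates, which equal those without that array, with log2 fold changes of 0.63 for Scgb1b27 (adjusted p = 0.0224) and 0.87 for Scgb2b27 (adjusted p = 0.00654). Across all alternatives the adjusted p ran from 0.0224 to 0.3 for Scgb1b27 and from 0.00654 to 0.269 for Scgb2b27. The labels do not say whether equal replicate numbers mean a shared preparation, and this was not tested. Over all tested probe sets, deviations of same-numbered arrays from their group means correlated between -0.075 and 0.0963. The block moved no secretoglobin count in the other 2 comparisons. Alpha minus beta for null against the 6 wild-type arrays was 0.09 with the replicate block and turned negative without 129/Sv array 2 (range over single arrays left out -0.09 to 0.17) and with Scgb1b2 in place of Scgb1b27 (-0.27). Averaging probe sets by gene was not run; each secretoglobin gene had 1. Obp1a changed sign in null against 129/Sv without 129/Sv array 1 (0.09) or null array 1 (0.08; range over single arrays left out -0.11 to 0.09), and in B6 against 129/Sv with quantile normalization (-0.06). Counts over all probe sets ran from 129 to 611 for null against B6 (274 as reported), 125 to 410 for null against 129/Sv (256) and 341 to 863 for B6 against 129/Sv (653). With equal array medians the share called higher in null against 129/Sv was 55.6%, against 69.1% as reported. The causes were not tested. The brightest signals may be compressed, and signals under the array medians have no detection call.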

Other observations

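The difference between the strains was set beside the place of the null glands. Of the 653 probe sets that differed between B6 and 129/Sv, the null mean lay beyond the B6 mean for 105 (16.1%), between the strains but nearer B6 for 273 (41.8%), nearer 129/Sv for 227 (34.8%) and beyond 129/Sv for 48 (7.35%). The means of Scgb1b27, Scgb1b2 and Scgb2b27 were all beyond B6, though none was called between null and B6. For Scgb1b2 that log2 fold change was 0.17 (limma adjusted p = 0.718). Placing 129/Sv at 0 and B6 at 1 on the log2 scale, the null mean stood at 1.24, 1.08 and 1.54 for these genes. All groups enter both the choice and the placing, so these are descriptions.

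The cluster of androgen-binding protein genes and Cyp2g1 lie on the same chromosome, with 164 other protein-coding genes between Cyp2g1 and Scgb1b27 in RefSeq, the Scgb genes left out. Of their 68 tested probe sets, 2 differed between the strains, where 5.19% of all tested probe sets did. Fcgbp, a mucus-associated protein, averaged 2077 ± 225 (SD, n = 3) over null, 1808 ± 442.1 (SD, n = 4) over B6 and 830.4 ± 190 (SD, n = 2) over 129/Sv arrays. Its null mean was also beyond B6, but it was not called between null and B6 (log2 fold change 0.22, limma adjusted p = 0.61). Blvrb, a biliverdin reductase, had 1106 ± 209.1 (SD, n = 3), 711.2 ± 154.1 (SD, n = 4) and 1384 ± 186 (SD, n = 2) in the same order, nearer 129/Sv. Leaving out 129/Sv array 2 ended the Fcgbp call (limma adjusted p = 0.0962). Leaving out 129/Sv array 1 or 2 ended the Blvrb call (limma adjusted p = 0.22 and 0.08), as did the replicate block. With 2 such probe sets, which strain's alleles the null line carries there was not tested.

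Several of the nearest profiles belong to 1 probe set of their gene. Riok3 had a log2 difference of 3.08 for B6 against 129/Sv at the nearest probe set and -0.22 and -0.63 at its other tested probe sets. Vamp3 had 1.85 at the nearest, and 0.13, 0.15, 0.07 and 0.21 at the others. Of 15 other tested probe sets of 6 of these genes, 6 were called between the strains, where 5.19% of all tested probe sets were. The call at Riok3 (-0.63, limma adjusted p = 0.00166) was the reverse of that at its nearest probe set. Hspb8 differed in null against B6, with 0.35 at the nearest (limma adjusted p = 0.576) and -0.8 (adjusted p = 0.0274) and -0.59 (adjusted p = 0.167) at the others. For B6 against 129/Sv its probe sets went the same way, with 1.39 at the nearest and 1.79 and 1.35 at the others. S100a10 had 0.9 and, at its other probe set, 0.54 (limma adjusted p = 0.0408), which against B6 did not pass in null glands (0.48, adjusted p = 0.0661). The secretoglobins had no second probe set for such a comparison.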
